A study of Mus musculus with 14 samples.

Results

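The regions described here are the G9a regions that stood without a listed histone mark region. They are the regions of the authors' deposited G9a table on chromosomes 1 to 19 that shared no base with any region of the deposited H3K9me2 table and none with any region of the deposited H3K27me3 table. They were thus selected on the deposited G9a values, which had to differ between the pairs, and on the position of the mark regions. This rule kept 144680 of 387570 G9a regions, or 37.3%, covering 86.4 Mb. They are called members here, and the other G9a regions are called marked. All 3 tables list only regions that differed between the conditions, so a member lacks a listed difference in either mark and may still carry the mark itself.

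The chromatin was that of cells enriched for cardiomyocytes, from C57BL/6J mice that were either sham operated or taken 1 week after transverse aortic constriction (TAC), a narrowing of the aorta that loads the left ventricle. The labels give the sham samples as untreated, name no other allele or agent, and give neither age nor sex. The series comprised 14 libraries: 2 biological replicates of each of 3 antibodies (anti-G9a, Sigma G6919; anti-H3K9me2; anti-H3K27me3) in each of the 2 conditions, and 2 inputs that were not used here. Whether animals were pooled is not stated, and an enriched population can hold other cardiac cells. The labelled cell type could not be checked by marker RNA, since the tables hold no expression values; how the marker genes of other cardiac cells fared is given with the gene lists.

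G9a, the product of Ehmt2, works with its partner GLP, the product of Ehmt1, to place mono- and dimethylation on lysine 9 of histone H3. H3K9me2 is a mark of silenced or low-activity chromatin, often spread over broad domains. H3K27me3 is placed by Polycomb repressive complex 2, whose catalytic subunit is Ezh2 or Ezh1, and covers the promoters of developmental regulators that a tissue does not use. G9a also methylates proteins other than histones and can be found on chromatin without its product. Pressure load makes cardiomyocytes grow and brings back part of a fetal gene programme.

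For every region the deposited table gives 4 whole numbers, one per G9a library, in a first pair and a second pair, and a p-value of the authors. It does not say which pair is sham, so each result names the pair with the higher values. If the pairs stand in the other order, the conditions behind every statement swap, and the regions stay as they are. The log2 difference compares the mean of the second pair with that of the first, after adding 1 to each, which understates the difference of low regions. A region is called separated when the lowest value of one pair lies above the highest of the other. All regions were listed because they differed between the pairs, so directions, differences and separation are descriptions without a test. Per the series' description the 2 libraries of a pair are biological replicates.

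Library 1 of the second pair stood apart from the other 3 G9a libraries. It was listed at 0 in 16.3% of members, against 1.68% and 0.194% for the first pair and 0.796% for library 2 of the second pair. In marked regions its share of zeros was 4.77% with H3K27me3 alone, 9.80% with H3K9me2 alone and 3.98% with both. Results are therefore given with and without it where it moved them, and its part in any result was not tested beyond that.

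The sequences that follow belong to members on which the account turns. The first set are mature microRNAs whose hairpin genes lay under members, shown because 2 pairs of them share a seed, the stretch that finds target messages. Sequences are from RefSeq on GRCm38.p6, written 5′ to 3′, and capitals mark the seed, bases 2 to 8. The hairpin of Mir195a reached only the last bases of the same member as Mir497, and its mature arm lay outside it.
miR-497a-5p: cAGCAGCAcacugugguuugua
miR-195a-5p: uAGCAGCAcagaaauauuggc
miR-34a-5p: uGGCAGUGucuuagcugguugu
miR-200c-3p: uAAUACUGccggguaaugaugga
miR-200b-3p: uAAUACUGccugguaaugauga
miR-497a-5p and miR-195a-5p share the seed AGCAGCA of the miR-15 family, which is known for holding back cell cycle genes in heart muscle. miR-200c-3p and miR-200b-3p share the seed AAUACUG of the miR-200 family, which keeps epithelial cells epithelial. miR-34a, a p53 target, has the seed GGCAGUG, which none of the other sequences shown here has.

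The second set are promoters of named genes whose start lay under a member, 250 bases before the start on the gene's own strand, from RefSeq on GRCm38.p6. Sdhd was the single named gene of this kind with the higher second pair, and Spata4 and Rapgef2 were the 2 with the smallest deposited p and the higher first pair. Capitals mark matches, on either strand, to the letters of the motifs named after them.
Sdhd, chr9:50603850-50604099, minus strand: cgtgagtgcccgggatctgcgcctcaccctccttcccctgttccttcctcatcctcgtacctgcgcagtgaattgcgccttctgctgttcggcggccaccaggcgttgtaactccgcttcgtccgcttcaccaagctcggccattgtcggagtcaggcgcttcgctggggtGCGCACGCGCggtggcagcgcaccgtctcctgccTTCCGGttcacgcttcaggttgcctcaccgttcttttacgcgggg
Spata4, chr8:54600531-54600780, plus strand: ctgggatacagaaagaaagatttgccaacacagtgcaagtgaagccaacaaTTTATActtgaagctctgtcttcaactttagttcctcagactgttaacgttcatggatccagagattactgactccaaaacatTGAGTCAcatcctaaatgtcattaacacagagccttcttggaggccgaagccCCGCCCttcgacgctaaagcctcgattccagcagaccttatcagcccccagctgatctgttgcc
Rapgef2, chr3:79145876-79146125, minus strand: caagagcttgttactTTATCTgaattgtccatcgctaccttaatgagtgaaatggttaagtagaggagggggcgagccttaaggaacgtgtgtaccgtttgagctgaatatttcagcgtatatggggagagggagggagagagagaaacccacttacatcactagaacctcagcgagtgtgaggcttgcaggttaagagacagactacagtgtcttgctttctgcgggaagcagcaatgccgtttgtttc
The Sdhd promoter held 1 match each to the NRF1 motif and the ETS core (CCGGAA), which 5.29% and 15.3% of all 20085 promoters held in the same 250 bases. The Spata4 promoter held 1 match each to the GC box (GGGCGG, 43.4% of promoters), the TATA box (TATAAA, 11.7%) and AP-1 (TGANTCA, 6.18%). The Rapgef2 promoter held 1 GATA match (AGATAA, 8.72%). These motifs do not overlap one another in the 3 sequences. The GC content was 64.4% for Sdhd with 27 CpG, 46.4% for Spata4 with 6 CpG and 47.2% for Rapgef2 with 8 CpG. A match is a run of letters and not a shown binding site.

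Most members were higher in the first pair. Of the 144680 members, 98423 were higher in the first pair (68.0%) and 46257 in the second (32.0%), where 55.4% of all G9a regions were higher in the first and 44.6% in the second. The share with the higher second pair was 55.2% under H3K27me3 alone, 34.5% under H3K9me2 alone and 51.0% under both marks. Without library 1 of the second pair, the highest of the 4 such values, 37.8% of members had the higher second pair. Members were short, with a median width of 550 bp and a maximum of 4700 bp, against medians of 700 bp, 600 bp and 750 bp in the 3 marked classes.

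Members higher in the first pair had median first-pair values of 85 and 95 and median second-pair values of 12 and 56. Members higher in the second pair had median first-pair values of 35 and 58 and median second-pair values of 90 and 114. The 2 libraries of the second pair were thus far apart in the first group, where library 1 was at 0 in 23.9% of regions and library 2 in 1.16%. The median log2 difference was -1.16 in the first group (quartiles -1.57 and -0.89) and 1.03 in the second (quartiles 0.81 and 1.36). In the first group it was -0.60 without library 1 and -2.85 without library 2 of the second pair, and in the second group 1.54 without library 2 of the first pair. Separation held for 84785 members, or 58.6%, where it held for 61.3% of all G9a regions.

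**Figure D1:**
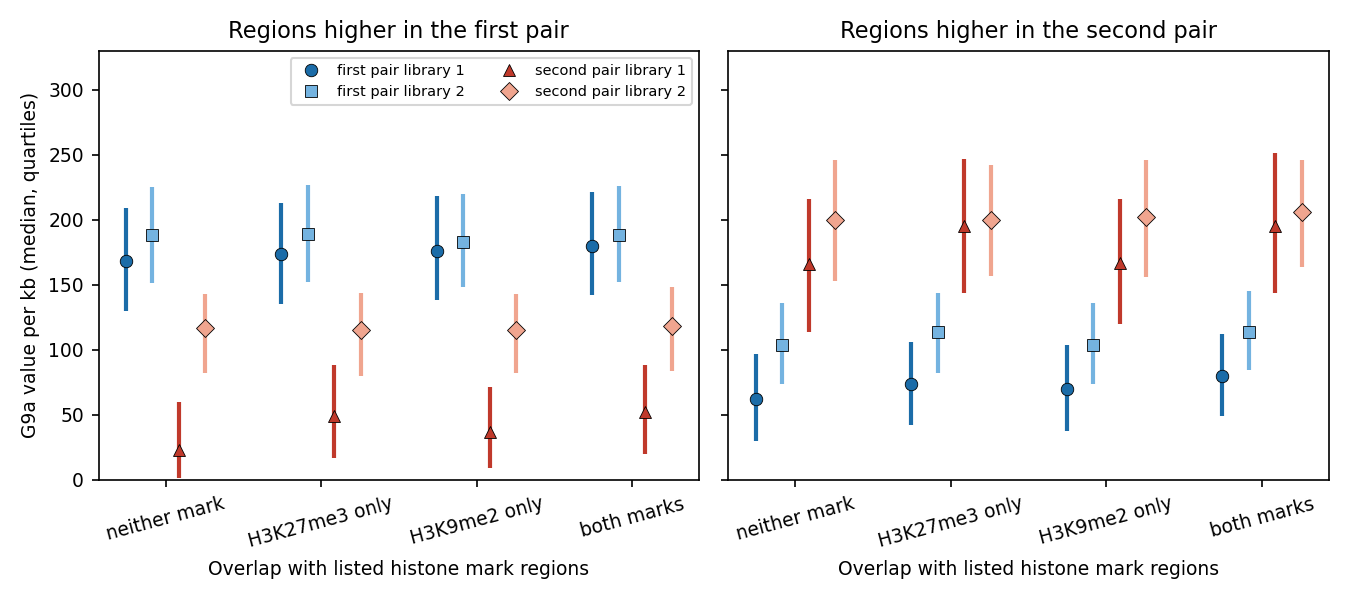
G9a value per kb of region in each of the 4 libraries, for regions higher in the first pair (left) and in the second pair (right), by overlap with listed histone mark regions; symbols are medians over regions and bars run from the lower to the upper quartile. Library 1 of the second pair lies at 23.2 per kb in first-pair members, against 49.1 in first-pair regions under H3K27me3 alone; in the left panel the other 3 libraries differ little between the classes.

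Per kb, first-pair members had first-pair medians of 168 and 188 and second-pair medians of 23.2 and 117. Regions under H3K27me3 alone had first-pair medians of 174 and 189 and second-pair medians of 49.1 and 115. In first-pair regions the classes thus differed mainly in library 1 of the second pair. Second-pair members had first-pair medians of 62.2 and 104 and second-pair medians of 166 and 200, where regions under H3K27me3 alone had 73.3 and 114, then 195 and 200.

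Members took different shares of the listed value of the 4 libraries. They held 32.1% and 31.3% of the summed value of the first pair's libraries and 18.5% and 26.0% of the second pair's. The shares of the pairs did not overlap. No test of these shares is given, because the regions were listed for a difference in these same values. A fit with limma over all G9a regions called 0 members and 0 regions in all at an adjusted p of 0.05 (0.0%). At an unadjusted p of 0.05, limma called 6188 members, or 4.28%, and 27268 of all G9a regions, or 7.04%. That count moved with the settings: it was 11108 members (7.68%, against 9.48% of all regions) with 8 added in place of 1, and 60525 (41.8%, against 31.4%) without library 2 of the second pair. Without library 2 of the first pair limma called 930 members and 6441 of all regions at the adjusted threshold, 896 of the 930 higher in the second pair. A pair with 1 library left is assumed to vary like the other pair, and the regions had been listed for a difference, so this count is not read as a result.

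Near the border of the rule members and marked regions had much the same values. The 4345 members that touched a mark region without sharing a base had the higher second pair in 43.4%, and the 4207 members 50 bp away from one in 40.1%. The 4617 regions with 50 bp under a mark region had it in 40.5%, and the 5320 with 100 bp under one in 41.0%. Median values ran from 65 to 67 and from 79 to 82 in the first pair and from 43 to 45 and from 73 to 76 in the second over these 4 sets. Members were often close to a mark: the median gap to the nearest listed mark region was 1400 bp, 61056 members (42.2%) lay within 1 kb of one, and 16983 (11.7%) lay over 10 kb from any. The median gap was 2150 bp to H3K27me3 and 4700 bp to H3K9me2.

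The direction of members varied with their distance from H3K27me3. Among the 9814 members at most 100 bp from an H3K27me3 region, 44.2% had the higher second pair. The share was 37.7% at 550 to 1000 bp, 31.8% beyond 2 and up to 5 kb and 18.3% among the 32179 members over 10 kb away. Without library 1 of the second pair it ran from 46.9% in the nearest group to 29.3% in the farthest, and it was lower with distance without any one of the 4 libraries. The nearest H3K27me3 regions themselves were higher in their second pair in 49.7% of cases in the nearest group and 22.4% in the farthest, if the 3 tables order their pairs alike. The antibodies share 1 input per condition, and how it was used for the tables is unknown here, so both sets of shares are set side by side without a test.

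Distance from H3K9me2 showed no such order. The share of members with the higher second pair was 33.7% within 100 bp of an H3K9me2 region, 29.7% at 550 to 1000 bp and 31.9% beyond 10 kb. The values per library moved with the distance from H3K27me3 mainly in one library. Library 1 of the second pair had a median of 48 in the nearest members and 9 in the farthest, where library 2 of that pair had 77 and 69. The first pair had 66 and 82 in the nearest members and 74 and 89 in the farthest.

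**Figure D2:**
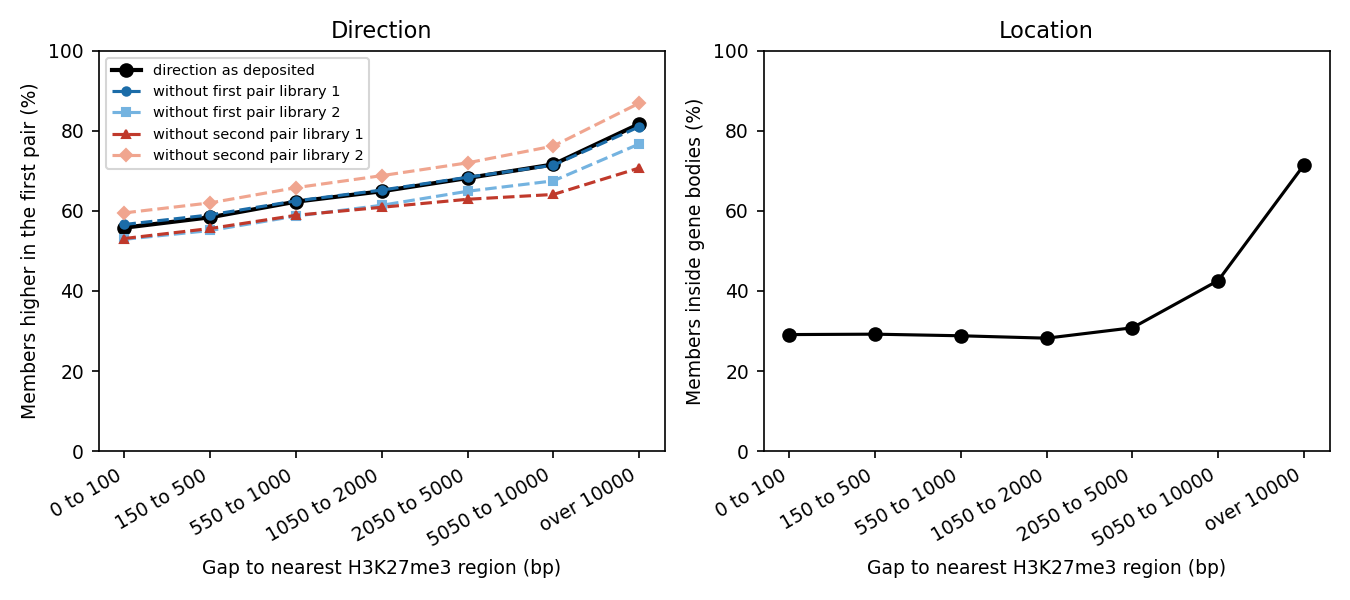
Left, percent of members higher in the first pair by gap to the nearest listed H3K27me3 region in bp, with the direction as deposited and with each library left out; right, percent of members inside protein-coding gene bodies by the same gap. The percent higher in the first pair is larger with distance in all 5 lines, and the percent in gene bodies goes from 29.1 in the nearest group to 71.5 in the farthest.

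Members far from H3K27me3 lay inside genes. Gene bodies, meaning protein-coding genes without the 2500 bp at their start, held 29.1% of the members nearest to H3K27me3 and 71.5% of those over 10 kb away. Over all members, 5.52% had their midpoint within 2500 bp of a gene start, 40.2% in a gene body and 54.3% elsewhere. Over all G9a regions the first 2 shares were 5.76% and 34.2%. First-pair members lay in gene bodies in 44.8% of cases and second-pair members in 30.2%. By class, 31.9% of regions under H3K27me3 alone, 28.3% under H3K9me2 alone and 27.9% under both lay in bodies.

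Members were found on every autosome at like shares, from 33.1% of the G9a regions of chromosome 7 to 42.0% of those of chromosome 16. The share with the higher second pair ran from 27.5% on chromosome 3 to 36.5% on chromosome 11. Of 84165 pairs of adjacent G9a regions that were both members, 65.9% had the same direction, and of 303386 other adjacent pairs 59.4% did. At gaps of at most 1000 bp these shares were 58% of 17007 and 57.6% of 95133 pairs, so close neighbours were alike in both sets. Touching pairs never had the same direction, 0 of 1882 between members and 0 of 10030 among the others. They are included in the shares at gaps of at most 1000 bp. How adjacent stretches were split or joined into regions is not stated, so the lack of agreement in touching pairs is not read as a result.

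Members were fewest in the kb before gene starts for the first-pair direction. First-pair members had 33.5 midpoints per 1000 starts in the 1 kb before the start, 48.0 in the kb before that and 48.1 in the kb after the start. Second-pair members had 21.1 in the kb before the start, 27 in the kb after it and 17.9 in the next. From 6 to 10 kb downstream of the start, first-pair members lay between 52.1 and 54.2 per 1000 starts and second-pair members between 20.5 and 21.7. These distances can reach beyond the end of a short gene.

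**Figure D3:**
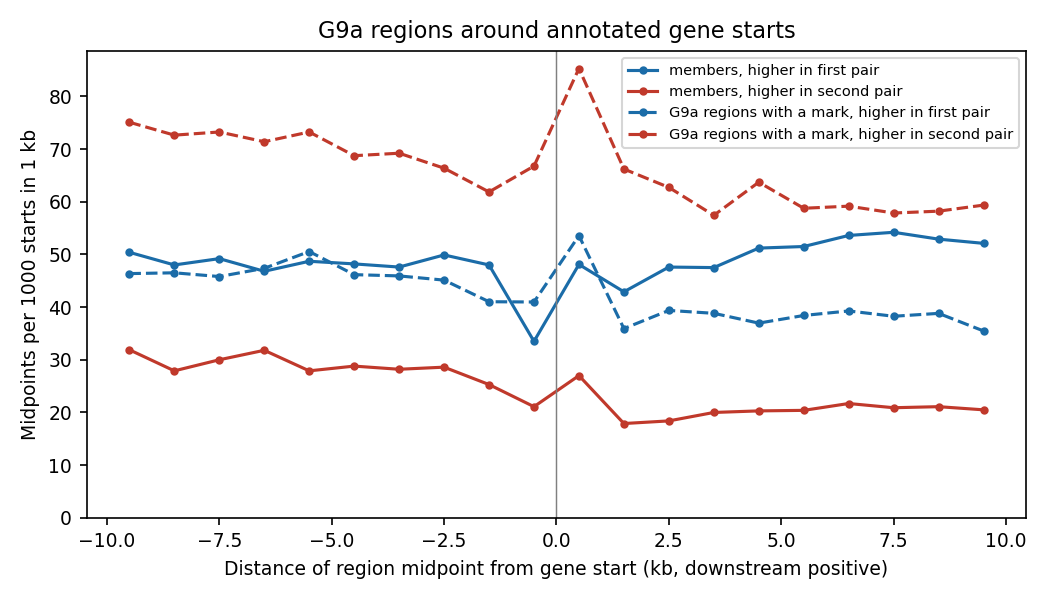
Midpoints of G9a regions per 1000 gene starts in bins of 1 kb, by distance from the start in kb (downstream positive); solid lines are members, dashed lines marked G9a regions, blue higher in the first pair and red in the second. First-pair members dip to 33.5 just before the start and lie above 50 from 4 kb downstream of it. Second-pair members are at 17.9 to 21.7 from 1 kb downstream of the start and at 25.3 to 31.9 more than 1 kb before it.

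Promoters under members had a higher median CpG ratio than those under marked regions. A member covered the start of 740 promoters, 430 of them higher in the first pair and 310 in the second, and a marked region covered 2627. The median ratio of observed to expected CpG over 300 bases was 0.52 under members, 0.38 under marked regions and 0.59 over all 20085 promoters. The ETS core, bound by ETS factors at many housekeeping promoters, was present in 16.5% of promoters under members, 8.45% under marked regions and 19.1% of all. The NRF1 motif, found at many genes of mitochondria, was present in 5.68%, 1.75% and 6.55%. The GC box, bound by Sp1, was present in 43.2%, 42.7% and 47.0%. Members at starts thus stood between marked regions and all promoters in CpG, ETS core and NRF1.

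A gene was counted when any base of a member lay within 2500 bp of its start, or of either end for the 4208 genes whose strand is not given. Of 20665 protein-coding genes, 7236 (35.0%) had a member there, 5382 (26.0%) one higher in the first pair and 2776 (13.4%) one higher in the second. Without library 1 of the second pair, 4802 genes had one higher in the first pair and 3481 one higher in the second. Any G9a region lay at the start of 13225 genes (64.0%), and 54.7% of these had a member. A marked region lay at the start of 8159 genes (39.5%). The gene lists were read against these shares, with no test of a list. Their regions had been listed for a difference, so a gene can be missing from the counts through low signal as well as through equal signal.

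Respiratory chain and ribosomal protein genes had few marked regions at the start. Of 45 respiratory chain genes, 24 had a member at the start and 1 had a marked region. Of the 24, 22 had a member higher in the first pair and 5 one higher in the second, and without library 1 of the second pair 21 and 6. Their members had summed first-pair values of 2762 and 3185 and second-pair values of 1147 and 2381. Of 59 ribosomal protein genes, 26 had a member and 4 a marked region, with 24 genes higher in the first pair and 4 in the second. Without library 1 of the second pair these became 17 and 11, while the counts over all genes went from 5382 and 2776 to 4802 and 3481. The ribosomal members had summed first-pair values of 2774 and 4183 and second-pair values of 600 and 3265. The ribosomal direction thus rested partly on that library, as did that over all genes.

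In the autophagy, immediate early and H3K9 methylation lists the share of genes with a marked region was also under the 39.5% of all genes. The same held for the sarcomere, calcium and channel, cardiac transcription factor, fatty acid oxidation and glycolysis lists. It held too for the growth signalling, fetal and stress, and Polycomb lists, so it was not particular to the lists given here. Members lay at 13 of 32 autophagy genes, 11 of 24 immediate early genes and 11 of 22 genes of H3K9 enzymes and partners, against marked regions at 4, 3 and 4. In the H3K9 list 10 genes had a member higher in the first pair and 2 in the second, with and without library 1 of the second pair. In the immediate early list 6 genes had each direction. Growth signalling genes, such as kinases and phosphatases downstream of load, had members at 22 of 39 starts and marked regions at 12.

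Heart muscle lists were mixed at the start. Members lay at 6 of 22 sarcomere genes and marked regions at 2, members at 7 of 29 genes of calcium handling and ion channels and marked regions at 7, and members at 10 of 21 cardiac transcription factors and marked regions at 6. Fetal and stress genes had members at 4 of 21 and marked regions at 8. Members lay at 7 of 25 fatty acid oxidation genes, 6 of 19 glycolysis genes, 9 of 32 extracellular matrix genes and 5 of 23 Polycomb genes. Marked regions lay at 3, 5, 17 and 8 of them.

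Developmental regulators had almost none. All 39 Hox genes had a marked G9a region at the start and 2 of them also a member. Of 62 developmental regulators of other lineages, 61 had a marked region and 0 had a member. Among markers of other cardiac cells, marked regions lay at 16 of 18 endothelial and 16 of 20 leukocyte genes, far above the 39.5% of all genes, and at 8 of 15 fibroblast and 8 of 13 smooth muscle and pericyte genes. Members lay at 5, 8, 4 and 4 of them. Every fibroblast and endothelial gene with a member also had a marked region.

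**Figure D4:**
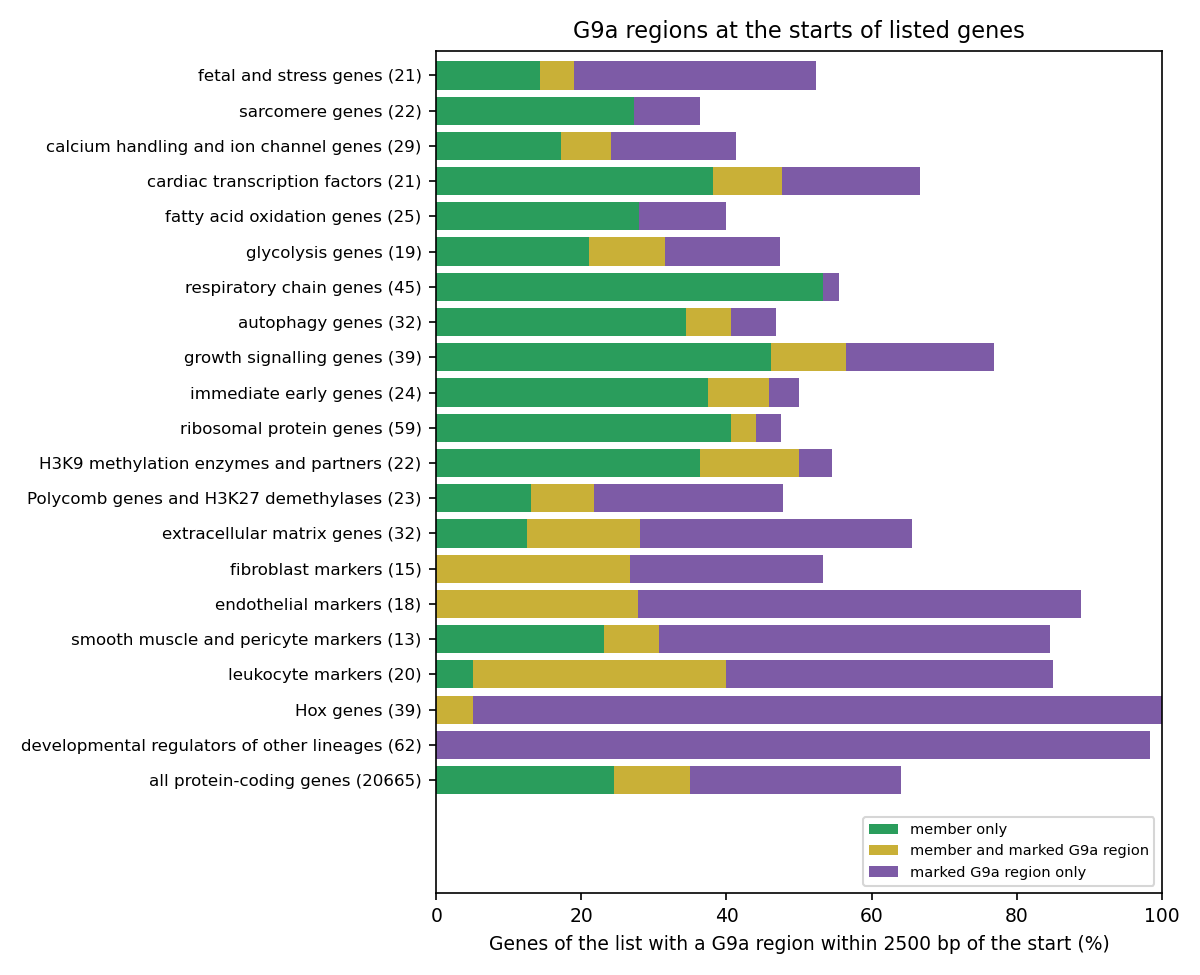
Percent of the genes of each list (number of genes in brackets) with a G9a region within 2500 bp of the start, split into genes with members alone, with members and marked regions, and with marked regions alone. The bar of the respiratory chain genes is nearly all members (24 of 25 genes with a G9a region), that of the developmental regulators holds 0 members, and all protein-coding genes form the lowest bar.

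Inside gene bodies the lists parted more clearly. For the lists and the single genes, a body is the whole annotated gene with its start. Regions at a start inside the gene are therefore counted again. In short genes, such as those of ribosomal proteins, start and body regions can be the same. Of the G9a regions in all protein-coding gene bodies, counted once per gene, 43.1% were members, and 75.4% of these members were higher in the first pair. Members made up 322 of 369 G9a regions (87.3%) in genes of calcium handling and ion channels and 84 of 102 (82.4%) in sarcomere genes. Lists that are not particular to heart muscle had as large a share, with 23 of 24 (95.8%) in ribosomal protein, 171 of 189 (90.5%) in autophagy, 42 of 47 (89.4%) in respiratory chain and 357 of 430 (83.0%) in growth signalling genes. Members made up 76 of 355 (21.4%) in endothelial markers, 34 of 134 (25.4%) in leukocyte markers, 22 of 435 (5.06%) in developmental regulators and 2 of 152 (1.32%) in Hox genes. Per 100 kb, the calcium and channel, sarcomere and endothelial lists differed far less in members, with 6.09, 6.15 and 6.66. All G9a regions there came to 6.98, 7.47 and 31.1. Members per 100 kb were fewer in developmental regulators (2.05) and Hox genes (0.666), where all G9a regions came to 40.5 and 50.6. They were more in ribosomal protein genes (10.4) and in smooth muscle and pericyte markers (9.48). When mark regions within 5000 bp also counted as marking a region, the member share was 58.5% in calcium and channel genes, 69.6% in sarcomere genes, 2.25% in endothelial markers and 15.9% over all genes.

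Over all gene bodies 75.4% of members were higher in the first pair, and 66.5% without library 1 of the second pair. In calcium and channel genes 283 of 322 members were (87.9%), and 72.4% without that library. In sarcomere genes it was 64 of 84 (76.2%), close to the share of all genes, and 60.7% without that library. In endothelial markers 22 of 76 members were higher in the first pair (28.9%), and 30.3% without that library. Shares like that of calcium and channel genes stood in respiratory chain genes (90.5%, and 69.0% without that library) and cardiac transcription factors (90.3% and 72.6%). In growth signalling and autophagy genes they were 86.6% and 85.4%, and 72.3% and 76.0% without that library. Extracellular matrix genes, fibroblast markers and leukocyte markers lay lower, at 64.2%, 57.5% and 52.9%. The calcium and channel members had first-pair sums of 28034 and 33697 and second-pair sums of 4886 and 25774. The pairs did not overlap, but library 2 of the second pair was near the first pair and library 1 far under it.

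The gene bodies named next were picked after their values were seen. Cacna1c, the pore subunit of the cardiac L-type calcium channel, held 46 G9a regions, 43 of them members. The members had first-pair sums of 3598 and 5402 and second-pair sums of 594 and 3690, and 39 members were higher in the first pair, 31 without library 1 of the second pair. The second pair's library 2 exceeded library 1 of the first pair, so the pairs overlapped in the sum. Ryr2, the calcium release channel of the sarcoplasmic reticulum, held 22 members of 24 regions, with first-pair sums of 1320 and 2041 and second-pair sums of 200 and 1691. Its pairs overlapped in the same way.

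All 21 regions in Slc8a1, the sodium-calcium exchanger, were members, and so were all 12 in Ttn, the giant spring of the sarcomere, and all 22 in Hdac4, a deacetylase that restrains growth genes. Kcnq1, a potassium channel of repolarisation, held 37 members of 40 regions, with first-pair sums of 3675 and 4013 and second-pair sums of 882 and 3690, so its pairs overlapped. Ehmt1, the G9a partner GLP, held 11 members of 11 regions, 9 of them higher in the first pair with and without library 1 of the second pair. They had first-pair sums of 1046 and 1262 and second-pair sums of 187 and 756, and the pairs did not overlap.

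In 2 endothelial genes, also picked after their values were seen, members ran the other way. Erg, an endothelial transcription factor, held 83 G9a regions, of which 22 were members, 18 of them higher in the second pair. Its members had summed first-pair values of 1732 and 2767 and second-pair values of 4167 and 3233, with no overlap. Flt1, a receptor of vascular growth factor, held 58 regions, 13 of them members and 12 of these higher in the second pair. It had first-pair sums of 1092 and 1136 and second-pair sums of 2183 and 2005, again with no overlap. Without these 2 genes the endothelial list had 17 body members higher in the first pair and 24 in the second, and in Vwf, the clotting factor carrier, both members were higher in the first. In a mixed population, more cells of a type and more G9a per cell cannot be told apart.

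Several classical genes of hypertrophy were not among the members. Nppa and Nppb, the natriuretic peptides, and Myh6 and Myh7, the cardiac myosin heavy chains, had no listed G9a region at the start or in the body. Acta1, skeletal actin and part of the fetal programme, had 4 marked regions at the start and 0 members. Ehmt2, which encodes G9a itself, had 0 regions at the start and 3 in the body, none of them a member. Ezh2 held 5 members among 6 body regions, Mef2c 2 of 3 and Gata4 3 of 3.

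At gene starts, the named genes are the 12 separated members per direction with the smallest deposited p, up to 3 genes of each list, and fixed genes. For each gene the member with the smallest p under that rule is named, and other members in the same window can have another direction. The members named at Atp5j, Atg13, Uhrf1 and S100a4 each lay in the windows of 2 protein-coding genes. Of 82 genes with such members, 29 had no strand in the reference, so both ends were used and which end the member lies at is not given; among those named here they are Vmn1r238, Irgc1, Creb3l1, Nnmt, Chrna2, Nrbp2, A530016L24Rik, Tmppe, Zfp276, Apbb3, Sra1, Myom2, Atp2a2, Kcnq1, Tbx5, Ccn2, Sdhc, Cpt1b, Rpl3, Becn1, Ppp3ca, Kdm3b, Col1a1, Loxl2 and Pecam1. Of these genes and the rest, Irgc1, Gdf1, Nnmt, Chrna2, Nrbp2, Kcnq1, Tbx5, Ccn2, Sdhd, Becn1, Uhrf1, Gsn, S100a4 and Pecam1 also had a member of the opposite direction in the window. On the second-pair side, Vmn1r238, a vomeronasal receptor gene, had the smallest p. Its member had first-pair values of 398 and 500 and second-pair values of 1823 and 943, a log2 difference of 1.62. Irgc1, an immunity-related GTPase gene, had first-pair values of 129 and 239 and second-pair values of 998 and 500, a log2 difference of 2.02 (chr7:24442951-24445350, 332 bp from an annotated end). In both genes library 1 of the second pair was the highest of the 4. The authors' deposited table gave p = 6.25e-107 for the region at Vmn1r238 and p = 8.27e-79 for that at Irgc1.

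Among these 12, the differences of largest size stood on first-pair values near 0. The member shared by the starts of Cers1, a ceramide synthase, and Gdf1, a growth factor on the same transcript, had first-pair values of 0 and 19 and second-pair values of 407 and 157 (chr8:70317751-70318850). The member at Creb3l1, a transcription factor of the secretory pathway, had first-pair values of 0 and 14 and second-pair values of 305 and 158 (chr2:92025851-92026700). Their log2 differences were 4.75 and 4.86. Slc30a2, a zinc transporter, had 6 and 32, then 201 and 246, and Nnmt, nicotinamide N-methyltransferase, 14 and 38, then 187 and 281. Both had all values of the second pair well above the first, and their log2 differences were 3.49 and 3.12.

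Other second-pair members were at Kazn, with first-pair values of 60 and 133 and second-pair values of 635 and 351 (log2 difference 2.34), and at Agmat, with 117 and 31, then 545 and 148 (2.21). Chrna2, a nicotinic receptor subunit, had 204 and 119, then 491 and 545 (1.68). Nrbp2 had 49 and 160, then 257 and 538 (1.92). Gm30733 and A530016L24Rik completed the 12, with log2 differences of 2.0 and 1.75. In Agmat the second library of the second pair was close to the first library of the first pair.

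On the first-pair side, Tmppe had the smallest deposited p and replicates that lay close together. Its member (chr9:114408301-114409350) had first-pair values of 289 and 265 and second-pair values of 26 and 28, a log2 difference of -3.31. Isoc2a, an isochorismatase-like gene, was much the same, with 280 and 346, then 45 and 39, and a log2 difference of -2.87 (chr7:4879301-4880500). In neither gene did library 1 of the second pair differ much from library 2. The Isoc2a member touched an H3K9me2 region without sharing a base. The authors' deposited table gave p = 2.03e-51 for Tmppe and p = 2.29e-50 for Isoc2a.

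The Spata4 member (chr8:54600201-54600850), which covered the start of this testis gene and the promoter printed above, had first-pair values of 138 and 177 and second-pair values of 1 and 0. Slc20a1, a phosphate transporter, had first-pair values of 116 and 210 and second-pair values of 8 and 3, and Mtf1, the metal response transcription factor, 132 and 161, then 0 and 7. The log2 differences were -6.72, -4.66 and -5.03, and in all 3 both libraries of the second pair were low, so that these log2 values depend on the 1 that was added. Rapgef2, an exchange factor for Rap GTPases, had 404 and 422, then 13 and 192 (log2 difference -2.0). Its member (chr3:79144701-79146650) covered the start, and library 2 of the second pair was far above library 1.

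Library 1 of the second pair was at or near 0 in several members of this group, and in some of these library 2 was well above it. Zfp276 had first-pair values of 400 and 234 and second-pair values of 0 and 105, and Ptpn4, a tyrosine phosphatase, 286 and 192, then 1 and 38. The member at Nudt21, a factor of messenger 3′ processing, and Ogfod1 had 130 and 263, then 0 and 34. Pes1, a ribosome assembly factor, had 225 and 463, then 42 and 107. Gm8126 and the member at Apbb3 and Sra1 had 0 in library 1 too, with 8 and 10 in library 2. All of these were separated, and what the low library contributed was not tested beyond leaving it out.

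**Figure D5:**
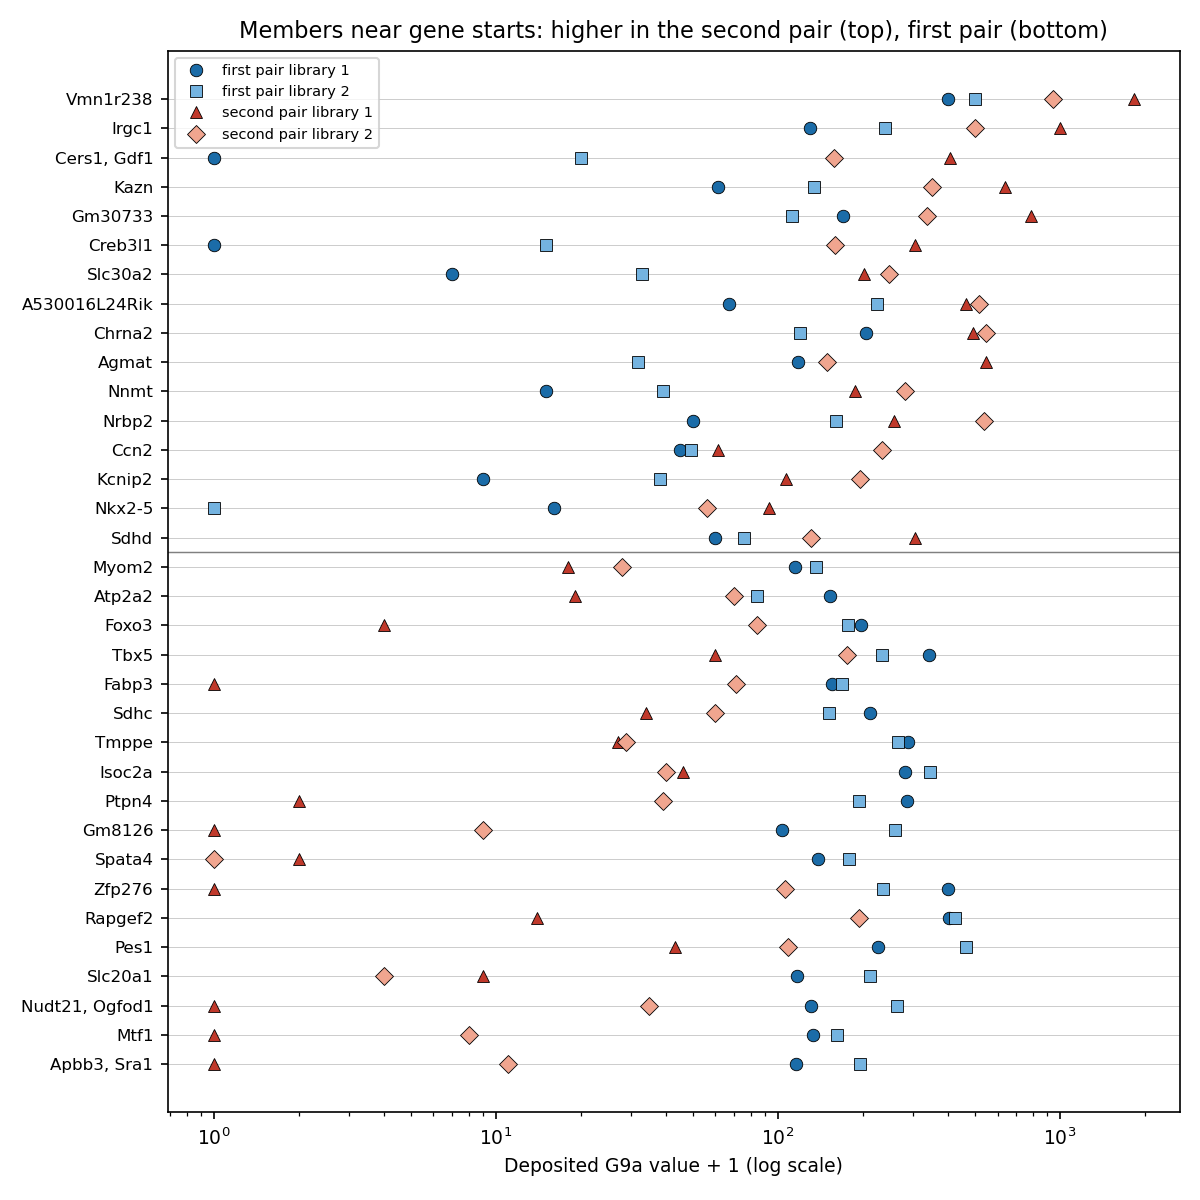
Deposited G9a value plus 1, on a log axis, in each of the 4 libraries for members near the starts of named genes; rows above the line are higher in the second pair, rows under it in the first. In Tmppe and Isoc2a the 2 libraries of the second pair coincide, while in Fabp3, Foxo3 and Rapgef2 library 1 lies far to the left of library 2.

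Among sarcomere genes, Myom2, an M-band protein, had first-pair values of 114 and 135 and second-pair values of 17 and 27, a log2 difference of -2.45. Ldb3, a Z-disc protein, had 69 and 39, then 2 and 26. Among calcium and channel genes, Kcnip2, the channel partner that shapes early repolarisation, had 8 and 37, then 106 and 194, a log2 difference of 2.68. Atp2a2, the calcium pump SERCA2a, had 152 and 83, then 18 and 69, a log2 difference of -1.41, and its pairs lay close at 83 and 69. Near an annotated end of Kcnq1 a member had 105 and 102, then 6 and 62.

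Among cardiac transcription factors 9 genes had a first-pair member at the start and 3 a second-pair member. Tbx5, needed for atrial and conduction identity, had first-pair values of 341 and 232 and second-pair values of 59 and 175, a log2 difference of -1.28. Foxo3, which drives atrophy and autophagy genes, had 196 and 176, then 3 and 83 (-2.09). Nkx2-5, the cardiac homeobox factor, had 15 and 0, then 92 and 55, a log2 difference of 3.13. All 3 members were separated, and the Nkx2-5 region was only 350 bp wide. It is 1 of 2 members in the Nkx2-5 body, and the other, also separated, was higher in the first pair. Together they had first-pair sums of 86 and 112 and second-pair sums of 96 and 109, with overlap. Among fetal and stress genes, Ccn2, a matrix-associated growth factor, had 44 and 48, then 60 and 232 (1.65), so 1 library carried most of its difference. A further member in the Ccn2 window was separated the other way, with 156 and 96, then 75 and 42 (-1.09). Gdf15, a stress cytokine, had 3 and 83, then 164 and 60, with overlap, and Rcan1, a calcineurin inhibitor, 157 and 182, then 18 and 160, with overlap.

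Of the 25 fatty acid oxidation genes 5 had a first-pair and 2 a second-pair member, and without library 1 of the second pair 5 and 3; both shares lie under the 26.0% and 13.4% of all genes. Of the glycolysis genes 6 had a first-pair member and 0 a second-pair one. Sdhc, a membrane anchor of succinate dehydrogenase, had first-pair values of 211 and 150 and second-pair values of 33 and 59, a log2 difference of -1.95. Sdhd, the other anchor of the same enzyme, had 59 and 75, then 306 and 130, a log2 difference of 1.69, over the promoter printed above (chr9:50603701-50604550). Sdhd had a further separated member in its window that was higher in the first pair (chr9:50605051-50605650), with 129 and 96, then 0 and 71, a log2 difference of -1.64. Both Sdhd members lay in the start windows of 3 protein-coding genes, Sdhd included. Atp5j, an ATP synthase subunit, had 74 and 90, then 12 and 15 (-2.52). Fabp3, the fatty acid carrier of heart muscle, had 154 and 167, then 0 and 70 (-2.17), and Cpt1b, which admits fatty acids to mitochondria, 55 and 91, then 11 and 31. Ldhb, a lactate dehydrogenase subunit, had 67 and 110, then 0 and 62.

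Several ribosomal and autophagy genes had 1 low library. Rpl3 had first-pair values of 369 and 335 and second-pair values of 0 and 267, a log2 difference of -1.39, and Rpl12 had 143 and 249, then 4 and 138. Rpl5 had 132 and 332, then 74 and 81, with library 1 at the level of library 2. Becn1, a starter of autophagosomes, had 236 and 186, then 20 and 115, and Atg13, part of the kinase complex that starts autophagy, 156 and 256, then 20 and 105. Tfeb, the master factor of lysosomal genes, ran the other way with 9 and 109, then 143 and 165. All 6 members were separated. The Becn1 window also held a separated second-pair member, with 54 and 56, then 62 and 215 (log2 difference 1.32).

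Growth signalling and chromatin genes followed. Ppp3ca, the catalytic subunit of calcineurin, had first-pair values of 220 and 217 and second-pair values of 26 and 85, a log2 difference of -1.96. Gnaq, the G protein of hypertrophic receptors, had 82 and 95, then 10 and 17 (-2.63). Wiz, a zinc finger partner of G9a and GLP, had 137 and 222, then 0 and 114 (-1.64), Uhrf1, which reads H3K9 methylation, 178 and 229, then 102 and 56 (-1.35), and Kdm3b, an H3K9 demethylase, 224 and 139, then 35 and 99 (-1.42). The start of Ehmt1 had 87 and 35, then 72 and 179, a log2 difference of 1.03 with overlapping pairs. This member lies within the gene and is among the 11 members of its body, whose sums ran the other way. Adrb1, the main cardiac beta receptor, had 2 members, with 0 and 109 against 104 and 122 and with 62 and 10 against 23 and 110; both overlapped.

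At their starts, 4 extracellular matrix genes had a member higher in the first pair and 6 one higher in the second, and of the fibroblast markers 2 and 4 did. Col1a1, a chain of type I collagen, had first-pair values of 140 and 141 and second-pair values of 493 and 207 (log2 difference 1.31), Gsn, gelsolin, 62 and 71, then 147 and 283 (1.68), and Timp2, a protease inhibitor, 18 and 70, then 71 and 287 (2.0). S100a4 had 95 and 33, then 126 and 229 (1.46), beside an overlapping member with 305 and 154, then 175 and 77 (-0.86). Loxl2, a collagen crosslinking enzyme, ran the other way with 195 and 114, then 1 and 49 (-2.58). All 5 were separated, and Timp2 only by 70 against 71. The Timp2 member is among 7 members of its gene body, 6 of which were higher in the first pair. Those 7 had first-pair sums of 552 and 838 and second-pair sums of 219 and 770, so the pairs overlapped in the sum. The Col1a1 member touched an H3K27me3 region without sharing a base. Pecam1, an endothelial adhesion molecule, had 70 and 234, then 302 and 246 (0.85), and a further separated member with 80 and 181, then 79 and 62 (-0.88).

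MicroRNA hairpins were counted under members and marked regions. Of 919 hairpins on these chromosomes, 70 (7.62%) lay under a member, 118 (12.8%) under a region with H3K27me3 alone, 4 under H3K9me2 alone and 31 (3.37%) under both. Members thus held 31.4% of the 223 hairpins under G9a regions and 29.5% of the length of those regions. Of the 70, 48 were under a member higher in the first pair, 27 of them separated, and 22 under one higher in the second, 11 of them separated. Over all members 68.0% were higher in the first pair and 58.6% were separated, so the hairpins were near these shares. Hairpins that share a member, such as those of Mir497 and Mir195a, are each counted. The microRNAs named here were chosen after their values were seen. The member at Mir497 (chr11:70234701-70235050) had 82 and 71 in the first pair and was listed at 0 in both libraries of the second, so no fold is given.

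The member at Mir34a (chr4:150067801-150068900) had first-pair values of 393 and 154 and second-pair values of 35 and 100, a log2 difference of -2.0. Mir200c (chr6:124718201-124719050) had 72 and 68, then 202 and 206, a log2 difference of 1.53 with close replicates. Mir200b (chr4:156055001-156056650) had 211 and 194, then 352 and 454, a log2 difference of 0.99. All 3 were separated. The member at Mir141 (chr6:124717201-124718200), which touched that of Mir200c, had 153 and 251, then 99 and 189. Its log2 difference was -0.49 with overlapping pairs. Since touching members never had the same direction, this is not read as a result on the miR-200 family.

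Far from genes, 42957 members (29.7%) lay over 50 kb from any protein-coding gene, and 31.8% of these had the higher second pair. The 3 with the smallest deposited p on the second-pair side all had their highest value in library 1 of that pair. The first (chr17:8036101-8037150) had first-pair values of 10 and 28 and second-pair values of 643 and 161, a log2 difference of 4.33. On the first-pair side, a member on chr4:29854551-29855650 had 688 and 123, then 4 and 59 (-3.64), with first-pair libraries that differed widely. A member on chr1:81710001-81710950 had 225 and 243, then 6 and 1 (-5.71), with close replicates in both pairs.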

How the data were processed

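Chromatin immunoprecipitation was measured in 12 libraries, with 2 inputs not used. The submitters' processing notes name BWA 0.7.10-r789, SAMtools 1.1 and the build mm10 (GRCm38). Not given in the sources used here are the caller of differential regions, any input correction and any scaling. For each antibody the authors deposited 1 headerless table with region, direction and, in 1 column, 4 whole-number values and a -log10 p, with a largest p of 0.00998. Whether these values are scaled is not stated, so no count model was used, and library depth is unknown.

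From these, overlap was taken from 1 bp on chromosomes 1 to 19, for 387570 G9a, 243842 H3K9me2 and 547402 H3K27me3 regions. limma 3.58.1 (R 4.3.3; trend, robust) was run on log2(value + 1) of all G9a regions with Benjamini-Hochberg adjustment, after a test on simulated data. Gene starts came from RefSeq, GRCm38.p6: 16457 of 20665 genes had a strand, and for 4208, with 511 on chromosome 18, both ends were used. Of 582 list symbols 569 matched, in 20 lists. Named genes follow the rule given in the report: separated members in a window shared by at most 3 genes, the 12 smallest deposited p per direction, up to 3 genes per list, 12 fixed genes and 3 far members per direction. A few named items are not reported here. Members, lists and rules were chosen with earlier results of these data known. Alternatives covered the overlap rule, a stricter p, separation, scaling, pseudocount, a value filter, window size, and each library left out.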

Additional observations from a re-analysis of the deposited data

Results flagged for a closer look

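Regions outside chromosomes 1 to 19 entered no comparison. On X and Y, 532 G9a regions overlapped no listed region of either mark. These were 510 of 803 G9a regions on X (63.5%), of which 40.4% had the higher second pair, and 22 of 51 on Y (43.1%), of which 40.9% had it. They drew notice as data outside the main comparison, in which 37.3% of the G9a regions were members.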

How the results depend on the processing

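No paired analysis was possible because the tables carry no replicate numbers, so the fit with the number as a block was not run. Of 799 alternatives over 169 results, 635 kept the value within the set limits, 160 moved it and 4 turned its direction. The number of members was 83624 when mark regions within 1000 bp counted and 31805 within 5000 bp. The percent with the higher second pair was 35.3 when 0.5 of the region had to be covered, 27.5 and 21.4 with marks within 1000 and 5000 bp, 30.9 at a deposited -log10 p of 3 or more, 31.3 among separated members, 35.3 weighted by width, and 27.8 to 37.8 without 1 library. The median of all G9a log2 differences was -0.67 as deposited, -0.84 at equal sums and -0.38 at equal medians. Without 1 library, limma called 0 to 930 members, and the median log2 difference was -2.85 to -0.60 for first-pair and 0.80 to 1.54 for second-pair members. The percent near gene starts was 5.29 at that coverage, 6.65 and 8.03 with marks within 1000 and 5000 bp, 4.86 when separated, and 2.30 and 10.7 with windows of 1000 and 5000 bp; in bodies these were 38.1, 47.6, 67.1, 38.0, 42.0 and 37.2, and 40.7 at the stricter p. List genes with a member numbered 89 and 294 with windows of 1000 and 5000 bp and 105 when separated. Respiratory chain genes were 14 at 1000 bp and 14 when separated. Ribosomal protein genes were 11 at 1000 bp, 43 at 5000 bp, 12 when separated and 16 at the stricter p, and those with a second-pair member 11 without library 1 of the second pair. Hox genes with a member were 1 when separated, and developmental regulators 4 at 5000 bp. Without 1 library, the percent with the higher second pair was 40.5 to 47.1 nearest to H3K27me3 and 13.1 to 29.3 beyond 10 kb. The direction of 4 named regions turned when 1 library was left out, with log2 differences from -1.12 to 2.03 for Ring1, -0.02 to 1.27 for Tagln, -0.10 to 1.95 for Laptm5 and -0.62 to 2.62 for the second Adrb1 member. The cause was not tested. Depth is unknown, and 2 libraries per pair limit every statement on single regions.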
